A study of Mus musculus with 8 samples.

Results

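The genes described here are the 4 secreted or surface-bound cytokines and decoy by which bone marrow stromal cells control osteoclast formation: Tnfsf11, Tnfrsf11b, Csf1 and Il34. They were taken by gene symbol, with earlier results of these data known, and all 4 were found among 47643 named entries of the expression table and among the 15327 genes tested. In cultures labelled as conditional Mettl3 knockout, the mRNAs of Tnfsf11 and of its decoy Tnfrsf11b were lower than in cultures labelled wild type, and those of Csf1 and Il34 were higher. The rise of Il34 was the smallest change, and its call was lost in 6 of 11 alternative analyses, against 1 for each other member. The m6A peak list of MSCs held 1 peak in Tnfrsf11b and 2 in Csf1, and listed none in Tnfsf11 or Il34.

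Osteoclasts, the cells that resorb bone, form from myeloid precursors that need a survival signal and a differentiation signal. The survival signal comes through the receptor CSF1R, which binds both M-CSF (encoded by Csf1) and IL-34 (encoded by Il34). The differentiation signal is RANKL (Tnfsf11), a member of the TNF family on the surface of osteocytes, osteoblasts, hypertrophic chondrocytes and stromal cells, which binds RANK (Tnfrsf11a) on the precursor. Osteoprotegerin (OPG, Tnfrsf11b) is a soluble decoy receptor that binds RANKL and keeps it from RANK, so that the balance of RANKL to OPG is commonly given as a ratio.

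RNA-seq was carried out on MSCs flushed from the tibiae and femurs of C57BL/6 mice, with 2 control-labelled libraries (wild type in the sample labels, Mettl3 fl/fl littermates in the study's methods) and 2 knockout-labelled libraries (Prx1-Cre;Mettl3 fl/fl). Both groups had spent 2 days in osteogenic medium with 10% serum, dexamethasone (100 nM), β-glycerophosphate (5 mM) and ascorbic acid (50 μg per ml). MeRIP-seq, in which RNA fragments bearing N6-methyladenosine (m6A) are recovered with an antibody, covered 2 immunoprecipitates and 2 inputs of MSCs in the same medium. Prx1-Cre acts in the limb bud mesenchyme and its descendants, not in hematopoietic cells. The sources used here do not give the age of the mice behind each library or whether animals were pooled, so the p-values measure the spread between these libraries, which may be technical.

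A library held 23978099 to 34106693 counts. Mettl3 itself, the targeted m6A methyltransferase, had 17.6 and 16.9 CPM (counts scaled to library size, per 1000000) in the control-labelled pair against 17.5 and 16.3 CPM in the knockout-labelled pair (log2 fold change -0.03 ± 0.0929 (SE), edgeR adjusted p = 0.824). These values cover the whole gene, floxed exons included, and give no check of the labels, so each direction below rests on the labels alone. The knockout-labelled pair was far more alike than the control-labelled pair. Over genes with 20 counts or more in a pair, chi-square was 1.82 per degree of freedom for the former and 32.6 for the latter, where counting noise alone would give a value near unity. Macrophage markers were abundant in every library, with Lyz2 (lysozyme) at 10984 to 15934 CPM and Csf1r at 1332 to 1473 CPM, and 7 of the 8 markers did not pass the test. The cultures thus held macrophage transcripts beside those of mesenchymal cells such as Col1a1, at 1225 to 1921 CPM.

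Tnfsf11 had 388 and 313 counts in the control-labelled libraries, and 12 and 8 counts in the knockout-labelled ones. Scaled to depth this was 11.5 and 11.1 CPM against 0.495 and 0.251 CPM. The groups lay far apart, with the lower control-labelled value many times the higher knockout-labelled one. The fitted change was -4.96 ± 0.253 (SE) on the log2 scale, that is 31.1-fold lower (95% interval 20.4-fold to 47.5-fold, edgeR adjusted p = 6.3e-05). By size of fall it ranked 74 among the 15327 genes tested. In these bulk libraries, fewer cells of a type and less RNA per cell cannot be told apart.

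Tnfrsf11b, the decoy, had 55.1 and 43.2 CPM in control-labelled replicates 1 and 2 against 14.7 and 15.2 CPM in the knockout-labelled replicates. The groups did not overlap, and the control-labelled pair differed among themselves by more than the knockout-labelled pair. The fall was 3.29-fold (log2 fold change -1.72 ± 0.13 (SE), 95% interval -2.03 to -1.41, edgeR adjusted p = 0.000295). The intervals of the log2 changes of ligand and decoy did not overlap, since that of Tnfsf11 ran from -5.57 to -4.35. Of all genes tested, 16.8% were lower in the knockout-labelled libraries past an adjusted p of 0.05.

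Csf1, the more abundant of the CSF1R ligands, had 354 and 295 CPM under the control label and 545 and 542 CPM under the knockout label. Both knockout-labelled values lay above both control-labelled values. It rose 1.67-fold (log2 fold change 0.74 ± 0.0916 (SE), 95% interval 0.52 to 0.96, edgeR adjusted p = 0.00212). Of all genes tested, 13.7% were higher past the same threshold, and 30.5% passed it in either direction.

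Il34 was measured at 13.1 and 15.1 CPM in control-labelled samples, with 18.6 and 18.7 CPM in knockout-labelled samples. The groups did not overlap, and the control-labelled values lay farther apart than the knockout-labelled ones. The rise was 1.32-fold (log2 fold change 0.40 ± 0.106 (SE), 95% interval 0.15 to 0.66, edgeR adjusted p = 0.0313). This call did not hold without knockout-labelled replicate 1 (adjusted p = 0.188), without knockout-labelled replicate 2 (0.205), when both knockout-labelled libraries were added into a single sample (0.177) in DESeq2 (0.0794) or in limma on log2(TPM + 0.1) (0.0996). The antisense neighbours of Il34, Gm15894 and Gm15895, held 0 to 6 counts per library, against 428 to 597 for Il34. Whether counting used strand is not given, so these counts do not show whether antisense reads were counted for Il34. The values of all 4 genes failed to overlap between the groups, as did those of 68.9% of all genes tested. A linear model was also fitted gene by gene on log2(TPM + 1), in the manner of the study's own tool. In it none of the 4 passed an adjusted p of 0.05 (from 0.0667 for Tnfsf11 to 0.24 for Il34), and 65 of all 15327 genes did. All directions were kept, and the log2 change of Tnfsf11 was -2.73. The study's own threshold was a change of at least 2-fold with an unadjusted p under 0.05. In this model the unadjusted p was 0.00147 for Tnfsf11, 0.0149 for Tnfrsf11b, 0.0288 for Csf1 and 0.0922 for Il34. It was under 0.05 for 4218 of all genes tested. The log2 changes of Tnfsf11 (-2.73) and Tnfrsf11b (-1.50) lay past 2-fold, and those of Csf1 (0.83) and Il34 (0.50) did not.

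**Figure D1:**
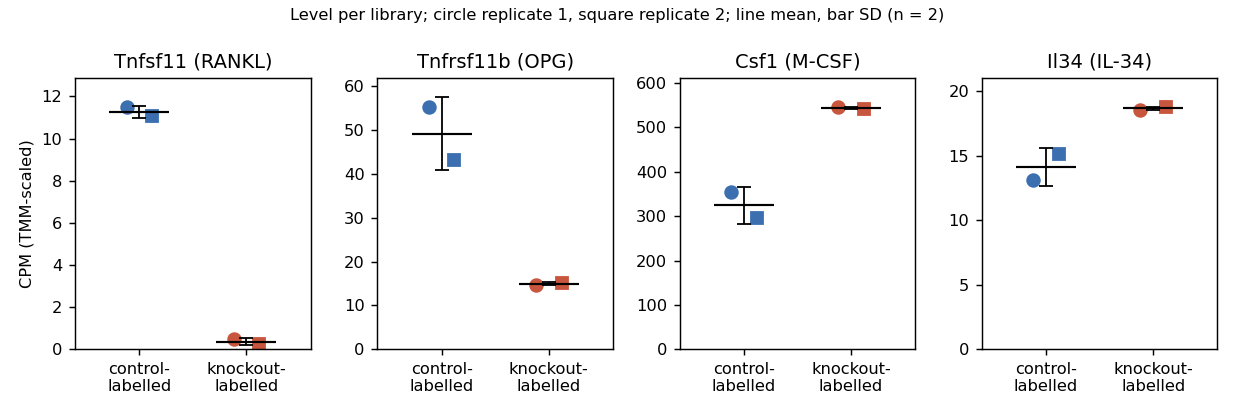
Level of each cytokine gene in each library, in TMM-scaled CPM on axes that start at 0, for the 2 control-labelled (blue) and 2 knockout-labelled (red) libraries, with the mean and SD of each pair. Tnfsf11 fell from about 11 CPM to under 0.5 CPM and Tnfrsf11b from 43.2 or more to 15.2 or less, while both knockout-labelled values of Csf1 and Il34 lay above the control-labelled ones.

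**Figure D2:**
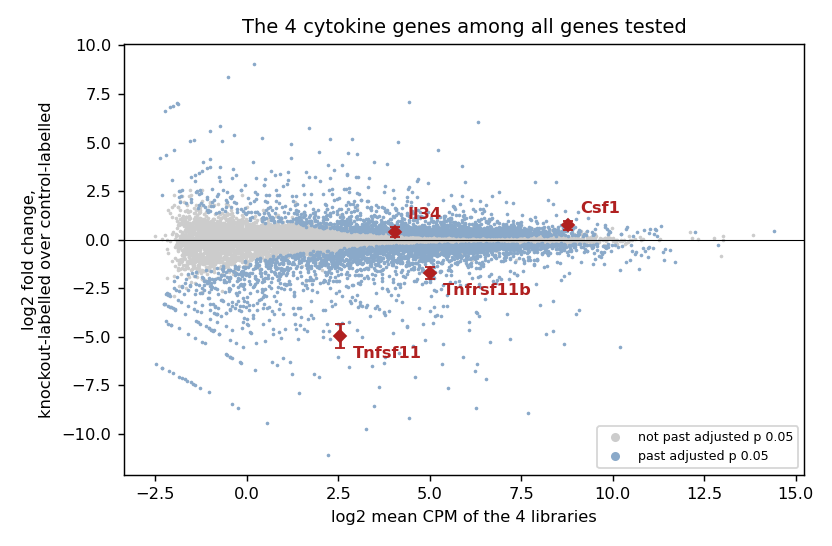
Log2 fold change (knockout-labelled over control-labelled) against log2 mean CPM for all 15327 genes tested, with the 4 cytokine genes as red diamonds and their 95% intervals. Tnfsf11 lies at -4.96 and Tnfrsf11b at -1.72, below zero, and Csf1 at 0.74 and Il34 at 0.40, above it.

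Levels of different genes can be compared only per length, which the deposited TPM (transcripts per 1000000) allow. In the control-labelled libraries the order was Csf1 (166 and 136 TPM), Tnfrsf11b (28.1 and 21.5 TPM), Il34 (15.6 and 19.3 TPM) and Tnfsf11 (7.59 and 7.14 TPM). The closest neighbours were Tnfrsf11b at 24.8 ± 4.62 TPM and Il34 at 17.5 ± 2.62 TPM (mean ± SD, n = 2), whose ranges did not overlap but whose SDs nearly met. In the knockout-labelled libraries Csf1 stood at 266 and 268 TPM, Il34 at 23.7 and 26.3 TPM, Tnfrsf11b at 7.91 and 8.19 TPM and Tnfsf11 at 0.35 and 0.18 TPM. Il34 and Tnfrsf11b had therefore changed places, and Csf1 stayed first and Tnfsf11 last in all 4 libraries. Tnfsf11 exceeded 41.3% of tested genes in each control-labelled library, and 7.26% and 3.5% of them in the knockout-labelled ones. Csf1 exceeded 93.4% to 96.7% of tested genes in the 4 libraries.

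The ratio of RANKL to OPG was taken within each library, where the library scaling cancels. There were 0.208 Tnfsf11 counts per Tnfrsf11b count in control-labelled replicate 1 (95% exact binomial interval 0.186 to 0.233) and 0.256 in replicate 2 (0.226 to 0.29). In knockout-labelled replicate 1 there were 0.0337 (0.0173 to 0.0596) and in replicate 2 there were 0.0166 (0.00711 to 0.0329). No interval of one group reached into the other, although the intervals cover counting error only and the knockout-labelled ratios rest on 12 and 8 Tnfsf11 counts. The mean log2 ratio was -2.11 ± 0.21 (SD, n = 2) in the control-labelled and -5.33 ± 0.70 (SD, n = 2) in the knockout-labelled libraries, a difference of -3.22 or 9.32-fold. The two-sided exact permutation p was 0.33, the smallest that 2 libraries against 2 allow. Per length, OPG transcripts outnumbered RANKL transcripts 3.7 and 3.01 times in the control-labelled libraries, and 22.6 and 45.5 times in the knockout-labelled ones.

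The ratio of Csf1 to Il34 behaved otherwise. It was 27 (24.6 to 29.8) and 19.5 (17.7 to 21.6) counts per count in the control-labelled libraries, and 29.3 (26.7 to 32.3) and 28.9 (26.6 to 31.4) in the knockout-labelled ones. The interval of control-labelled replicate 1 overlapped those of both knockout-labelled libraries, and that of replicate 2 overlapped neither. The difference of mean log2 ratios was 0.34 (exact permutation p = 0.33, again the smallest possible). It was 0.58 without control-labelled replicate 1 and 0.11 without control-labelled replicate 2. Per length the ratios of 10.6 and 7.04 against 11.3 and 10.2 overlapped, with a difference of 0.31 (exact permutation p = 0.667). The 95% intervals of the log2 changes of Csf1 and Il34 overlapped.

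**Figure D3:**
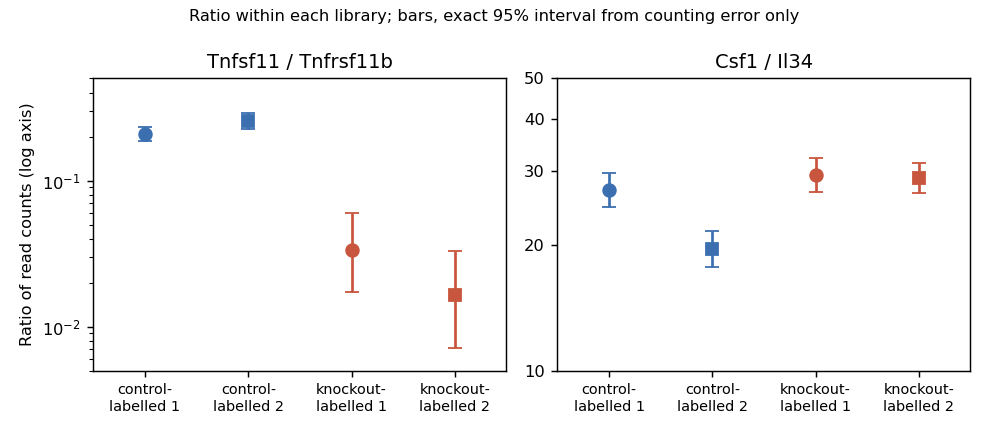
Ratio of read counts within each library on log axes, Tnfsf11 over Tnfrsf11b (left) and Csf1 over Il34 (right), with exact 95% intervals from counting error only. The left ratio is 0.208 and 0.256 in the control-labelled libraries and 0.0337 and 0.0166 in the knockout-labelled ones, and the right ratio runs from 19.5 to 29.3.

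The m6A peaks of the members were read from the authors' list of 10160 peaks on mm9. It is 1 list for the 4 MeRIP-seq samples and gives no replicate values, and it was made from MSCs labelled wild type. The gene with the strongest fall, Tnfsf11 (chr14:78677252-78707850, minus strand), had no listed peak within its span, and the nearest summit outside it lay 202799 nt away in Akap11. Il34 (chr8:113265729-113329824, minus strand) had none either, the nearest lying 2661 nt away in Mtss1l. Peaks need reads, and among tested genes on the annotation with control-labelled mean CPM within 2-fold of Tnfsf11, 41.8% of 3261 had a peak, against 42% of all 14118. For the level of Il34 the share was 44.2%, for Tnfrsf11b 52.1% and for Csf1 50.9%.

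In Tnfrsf11b the peak spanned chr15:54083418-54083831 (mm9, minus strand), with its summit at 54083751 in the coding part of the last exon, 200 nt before the stop codon. Of its 414 bases, 280 were coding and 131 lay in the 3′UTR. It was a weak peak by enrichment, at 2.4-fold (rank 9200 of 10160), with a pileup of 57 fragments and a −log10 q of 6.1. Csf1 held a peak at chr3:107551526-107552035 (mm9, minus strand) with its summit in the coding part of exon 6 of 9 of transcript Csf1-001, 728 nt before the stop codon. A longer peak followed at chr3:107544951-107546115, with its summit in the 3′UTR of the last exon, 369 nt beyond the stop codon along the spliced transcript. The Csf1 peaks had pileups of 158 and 192 fragments (ranks 391 and 115) and −log10 q of 25.8 and 36.8. Their enrichments of 2.86-fold and 3.16-fold lay below the median of 4.03 over all peaks, as did that of Tnfrsf11b.

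Both Csf1 peaks fell where the transcripts of the gene differ. All 510 bases of the coding peak lay in a stretch of 885 bases of exon 6 that transcripts Csf1-001 and Csf1-002 contain and Csf1-004 skips by using a shorter exon of 131 bases. As background, this stretch encodes the part of M-CSF at which the secreted forms are cut free, and its omission yields the membrane-anchored form. The 3′UTR peak lay on the last exon of Csf1-001 and Csf1-004, 2098 bases long, which Csf1-002 replaces by another of 227 bases. The gene-level counts do not separate these transcripts.

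**Figure D4:**
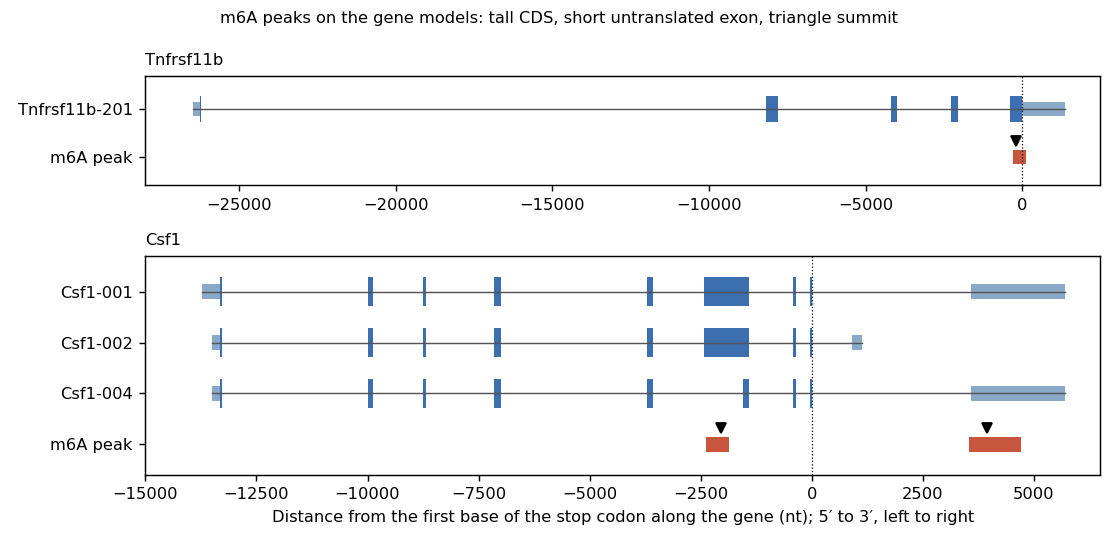
m6A peaks (red, summit as a triangle) on GENCODE models of Tnfrsf11b and Csf1, drawn to scale by genomic distance from the stop codon in nt, with coding exons tall and untranslated exons short. The Tnfrsf11b peak sits at the end of the coding sequence, and the Csf1 peaks sit in the long form of exon 6 and at the start of the 3′ terminal exon shared by Csf1-001 and Csf1-004.

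The methyltransferase complex modifies adenosines within a short consensus of which GGAC and AGAC are common forms. The bases around the coding summits are shown to set the members side by side, 241 bases each on the transcript strand of mm9, with every GGAC and AGAC in capitals. They come from chr15:54083631-54083871 and chr3:107551583-107551823, and both are coding throughout.
Tnfrsf11b: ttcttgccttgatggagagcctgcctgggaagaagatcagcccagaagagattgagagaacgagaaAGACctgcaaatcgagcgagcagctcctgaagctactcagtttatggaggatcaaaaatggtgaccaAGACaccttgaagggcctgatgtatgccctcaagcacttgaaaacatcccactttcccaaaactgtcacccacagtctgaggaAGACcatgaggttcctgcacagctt
Csf1: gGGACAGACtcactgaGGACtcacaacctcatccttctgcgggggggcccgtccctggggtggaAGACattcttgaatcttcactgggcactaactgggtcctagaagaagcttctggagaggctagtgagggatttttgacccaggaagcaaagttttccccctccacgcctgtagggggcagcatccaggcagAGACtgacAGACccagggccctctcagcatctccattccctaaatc
The Tnfrsf11b peak held no GGAC and 6 AGAC, the nearest adenosine 15 nt from the summit. The coding peak of Csf1 held 5 GGAC and 6 AGAC, the nearest of them 102 nt and 54 nt from the summit. Of the 8710 peaks within genes on one strand, 87% held GGAC and 82% AGAC. Of windows of 241 bases around the summits, 83.7% and 75.2% did.

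The 3′UTR peak of Csf1 held 8 GGAC and 9 AGAC, the nearest 12 nt and 6 nt from the summit. A stretch of 30 bases around these (chr3:107545683-107545712, mm9, minus strand) is shown because both motifs stand next to the summit in it.
Csf1 3′UTR: catgggAGACcaGGACagatgagaaggagc
A match is a description of letters and no evidence that the base carries the mark.

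Promoters were at hand for Tnfsf11 and Csf1, which moved in opposite directions, from RefSeq (GRCm38.p6, 250 bases before to 50 after the start). They span chr14:78307994-78308293 and chr3:107760420-107760719, both on the minus strand. Capitals mark matches on either strand to TATAA (the core of the TATA box), CCAAT (the box bound by NF-Y), TGACG (the core of a cAMP response element) and GGGCGG (a GC box, bound by Sp1).
Tnfsf11: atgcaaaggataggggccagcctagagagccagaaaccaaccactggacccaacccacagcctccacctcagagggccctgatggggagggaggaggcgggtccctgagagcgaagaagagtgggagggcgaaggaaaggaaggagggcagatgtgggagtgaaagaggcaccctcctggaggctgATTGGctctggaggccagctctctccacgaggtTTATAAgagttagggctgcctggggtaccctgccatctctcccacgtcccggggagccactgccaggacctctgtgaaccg
Csf1: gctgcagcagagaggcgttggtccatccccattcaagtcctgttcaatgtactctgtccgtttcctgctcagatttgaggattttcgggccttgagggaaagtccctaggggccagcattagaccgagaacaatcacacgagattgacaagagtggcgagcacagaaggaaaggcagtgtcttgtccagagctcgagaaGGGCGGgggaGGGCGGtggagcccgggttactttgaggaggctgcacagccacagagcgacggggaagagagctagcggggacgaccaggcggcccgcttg
The Tnfsf11 window held TATAA on both strands in overlapping letters, with leftmost bases at -31 and -30 from the start, and CCAAT on the reverse strand at -64. The Csf1 window held GGGCGG 2 times, at -51 and -41, and none of the other motifs. TGACG was in neither window. Among 32851 promoter windows of this length, 24.9% held TATAA, 37.4% CCAAT, 20.8% TGACG and 35.7% GGGCGG.

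The genes around this axis were described in 8 lists, of which 94 distinct genes were tested. Over them, 19 were higher and 24 lower past the threshold, beside the background of 30.5% of all genes in either direction. The median log2 fold change of all genes tested was -0.0038. Where libraries were left out or summed, calls over all genes moved in the same direction as the list calls given below. With both knockout-labelled libraries added together, 28 genes of these lists were called, and without either knockout-labelled library 25.

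On the receiving side of the signals, the list of receptors and intracellular effectors had 12 of 14 genes tested, with 3 higher, 3 lower and a median log2 fold change of 0.02. Csf1r, the shared receptor of M-CSF and IL-34, had 1332 and 1473 CPM under the control label and 1406 and 1419 CPM under the knockout label, values that overlapped (log2 fold change 0.01, edgeR adjusted p = 0.927). RANK itself (Tnfrsf11a) had a log2 fold change of -0.20 and did not pass (edgeR adjusted p = 0.0556). Tyrobp, an adaptor for co-stimulatory receptors of osteoclast precursors, did not pass either, at 409 and 424 CPM against 373 and 369 CPM. The AP-1 subunit Fos, which osteoclast formation requires, fell from 29.8 and 33.5 CPM to 8.5 and 8.06 CPM (log2 fold change -1.93). Lgr4, a further receptor of RANKL, fell from 37.5 and 43.9 CPM to 16.6 and 17.7 CPM (-1.24). These bulk libraries do not show in which cells Fos and Lgr4 fell. The 6 calls of this list became 2, both lower, without either knockout-labelled library or with both added together, and 10 without control-labelled replicate 1.

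Products of osteoclasts gave 6 of 12 genes tested, 2 higher and 2 lower, with a median of -0.0064. Acp5, tartrate-resistant acid phosphatase, fell from 10.7 and 14 CPM to 6.11 and 6.4 CPM, and Itgb3, the β subunit of the vitronectin receptor, rose from 5.09 and 3.29 CPM to 8.09 and 8.31 CPM. Tcirg1, a proton pump subunit, rose with a log2 fold change of 0.28, and the chloride channel Clcn7 did not pass (0.11). The other fall was that of Ctsk, from 97 and 81.3 CPM to 57 and 55 CPM (-0.67), and Atp6v0d2 did not pass (-0.12). Some other genes of this list were at or near 0. Calcr, the calcitonin receptor, and Siglec15 had 0 counts in every library, and Dcstamp, needed for cell fusion, had 1 count in all. Without either knockout-labelled library, 2 genes of this list were called, both lower, so that neither Itgb3 nor Tcirg1 was called higher. A count of 0 allows up to 3 counts, or 0.0887 to 0.124 CPM.

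Genes upstream of Tnfsf11 were all tested, 20 of 20, with 4 higher, 5 lower and a median of 0.03. The largest change was that of Vdr, the vitamin D receptor, through which calcitriol raises Tnfsf11. It fell from 169 and 156 CPM under the control label to 18.5 and 20.1 CPM under the knockout label (log2 fold change -3.07 ± 0.0788 (SE), edgeR adjusted p = 5.05e-06). Sik1, a kinase that restrains the CRTC coactivators downstream of the PTH receptor, fell from 123 and 132 CPM to 49.3 and 48.8 CPM (-1.38). Stat3, the transcription factor downstream of the IL-6 family, fell slightly (-0.21), and their shared receptor chain Il6st did not pass (0.31, adjusted p = 0.0609). Pth1r, the PTH receptor, had a log2 fold change of -0.0042 and did not pass. Without either knockout-labelled library, or with both added together, 4 genes of this list were called in place of 9.

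Other stromal regulators of osteoclast formation gave 15 of 20 genes tested, with 7 lower, 2 higher and a median of -0.46. Ptgs2, which makes the precursor of prostaglandin E2, fell from 109 and 149 CPM to 6.6 and 6.9 CPM (log2 fold change -4.25 ± 0.173 (SE), edgeR adjusted p = 2.51e-05). Il6 fell from 8.22 and 10.1 CPM to 0.867 and 0.847 CPM (-3.41). Cxcl12, a chemokine of marrow stroma, fell less (-0.65), and Tgfb1 did not pass (0.15). The rises were those of Osm, an IL-6 family cytokine (1.13), and Sema3a, a semaphorin that restrains osteoclast formation (1.24). In limma on log2(TPM + 0.1), 7 genes of this list were called, 6 lower and only 1 higher.

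Proteins that cut or sort the cytokines gave 10 of 11 genes tested, with 2 higher, 1 lower and a median of 0.08. Mmp3, a matrix metalloproteinase, fell from 10 and 13.2 CPM to 0.537 and 0.628 CPM (log2 fold change -4.29). Adam19, a transmembrane protease, rose from 17.4 and 12.5 CPM to 28.3 and 27.8 CPM (0.90). The abundant Timp2, a metalloproteinase inhibitor, and Mmp14, a membrane-type protease able to shed RANKL, did not pass (0.00016 and 0.28). This list had 8 calls without control-labelled replicate 1 and 6 without control-labelled replicate 2.

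Among the relatives of the members, 8 of 17 other TNF ligands were tested, of which Tnfsf12 (0.61) and Eda (0.73) were higher and none was lower at the threshold (median 0.31). Of 26 other TNF receptors, 19 were tested, with 3 higher, 3 lower and a median of -0.0065. Ngfr, the low-affinity neurotrophin receptor, fell from 5.35 and 7.78 CPM to 0.619 and 0.22 CPM (log2 fold change -4.03), and Tnfrsf19 rose from 0.385 and 0.283 CPM to 2.48 and 2.35 CPM (2.82). The most abundant, the TNF receptors Tnfrsf1a (0.04) and Tnfrsf1b (0.50), split into one that did not pass and one that rose. The 6 calls among the receptors became 10 without control-labelled replicate 1 and 13 without control-labelled replicate 2, and the 2 among the ligands became 4 without control-labelled replicate 2 and 1 without knockout-labelled replicate 2. Other hematopoietic growth factors gave 6 of 12 genes tested, with 3 lower, 1 higher and a median of -0.43. Vegfa fell from 185 and 161 CPM to 39.1 and 40.1 CPM (-2.13), and Kitl, the stem cell factor, from 108 and 89.2 CPM to 62.7 and 66.8 CPM (-0.61). Angpt1 fell by 0.81 on the log2 scale. Csf2, which encodes GM-CSF, had 0 counts in every library, and Csf3, which encodes G-CSF, had at most 4.

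**Figure D5:**
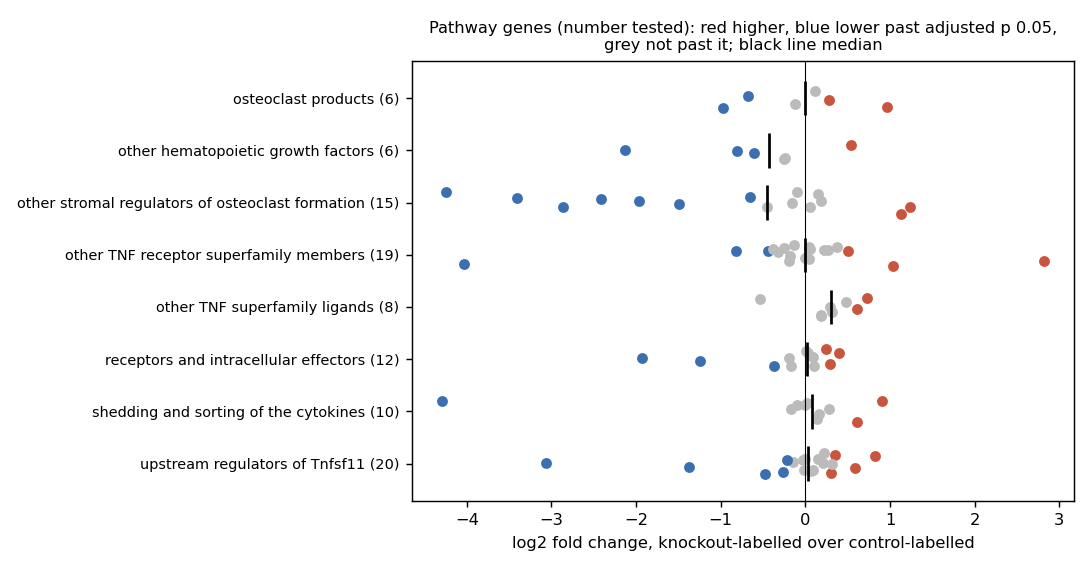
Log2 fold change of every tested gene in the 8 lists around the cytokines (red higher and blue lower past an adjusted p of 0.05, grey not past it), with the number tested in parentheses and the list median as a black line. The stromal regulators spread from -4.25 (Ptgs2) to 1.24 (Sema3a), and the receptors and intracellular effectors have a median of 0.02.

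Markers of the cell types known to make RANKL moved in both directions. Of 7 chondrocyte markers, 6 were lower, their summed level being 3602 and 3673 CPM under the control label and 86.4 and 86 CPM under the knockout label. Col2a1, the cartilage collagen, fell from 2405 and 2195 CPM to 47.9 and 51.5 CPM (log2 fold change -5.53), and Comp from 761 and 829 CPM to 20.5 and 17.9 CPM (-5.37). Of 7 osteoblast markers, 6 were lower, among them Ibsp (-0.94), and the median log2 fold change of the 7 was -1.28. Their summed level of 5804 to 15032 CPM was set by Spp1, which did not pass and was 14630 CPM in control-labelled replicate 2. Of 10 mesenchymal markers, 5 were lower and 4 higher, with Col1a1 (-0.62) and Col1a2 (-1.14) among the lower ones. The higher ones were Prrx1 (1.05), Pdgfrb (0.70), Pdgfra (0.24) and Thy1, which had the largest change of this list, from 3.93 and 1.91 CPM to 74.7 and 69.4 CPM (4.59). Of 6 osteocyte markers 2 were tested, of which Pdpn was higher (0.81) and Phex did not pass (-0.63), and Sost had 0 counts in every library. The part of these markers in the changes of Tnfsf11 and Tnfrsf11b was not tested. The summed macrophage markers were 14560 and 19612 CPM in the control-labelled and 19397 and 19520 CPM in the knockout-labelled libraries, and only Ptprc of the 8 was higher.

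The genes whose pattern over the 4 libraries was most like each member were found by the Euclidean distance of centred log2 CPM. For Tnfsf11 these were Cpxm2, a carboxypeptidase-like protein, Gdf10, a member of the TGF-β family, and the potassium channel Kcnk5, at distances of 0.265 to 0.456. For Tnfrsf11b they were the metallothionein Mt1, the transferrin receptor Tfr2 and the lipid droplet protein Plin4 (0.0951 to 0.108). For Csf1 they were Cttnbp2nl, Bcam and Add3 (0.0231 to 0.0412), and for Il34 Rnf19a, Arhgap4 and Gm37379 (0.0276 to 0.0323). The nearest neighbours of Tnfsf11 were farther from it than those of the other members were from theirs. Such distances include counting noise: Tnfsf11 had 12 and 8 counts in the knockout-labelled libraries, and its neighbours had means of 0.244 to 0.353 CPM there.

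Peaks were also counted in the lists. Among tested genes, 16 of 20 upstream of Tnfsf11 had a listed m6A peak, and Vdr, Stat3, Runx2 and Crtc2 had none. Of the 12 receptors and effectors tested, 8 had one, including Csf1r, Tnfrsf11a, Lgr4 and Fos. For the other stromal regulators it was 8 of 15, with none in Ptgs2 or Il6, and for osteoclast products 1 of 6, in Itgb3. It was 12 of 19 for the other TNF receptors, 5 of 10 for shedding and sorting, 2 of 8 for the other TNF ligands and 2 of 6 for the other growth factors. The background was 42% of the 14118 tested genes on the annotation and was not matched for level. In the lists, any tested gene absent from that annotation was counted as having no peak.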

How the data were processed

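RNA-seq libraries were grouped by the sample labels as 2 control-labelled and 2 knockout-labelled. The authors mapped reads with HISAT2 2.0.4 and deposited estimated counts per gene, and a value headed FPKM that sums to 1000000 per library and was used as TPM. Whether counting used strand is not given in the sources used here. Positions in this table are GRCm38. Estimated counts were rounded. The 89 entries without a name (0.110% to 0.125% of counts) were left out.

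Genes were filtered by filterByExpr, given TMM factors and compared by the quasi-likelihood test of edgeR 4.0.16 (glmQLFTest, two-sided, R 4.3.3), with Benjamini-Hochberg adjustment over 15327 genes at a threshold of 0.05. Ratios used counts plus 0.5 and exact permutation tests (scipy 1.17.1), and 2 ratios were tested, for which adjustment leaves p at 0.33. Reads carried no molecular identifiers, so intervals and floors cover counting error only.

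For MeRIP-seq, TopHat and MACS2 are named in the submitters' processing notes. The authors deposited 1 list with pileup signal, fold enrichment as a ratio, −log10 p-value and −log10 q-value. It gives no sample depth, so the depth behind each peak is unknown. Summits were placed on GENCODE vM1 models and the mm9 genome.

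Members, lists and tests were chosen with earlier results of these data known. Named genes were the members, from each list the 2 of highest mean CPM and the 2 called ones of largest change, the 3 nearest patterns per member (prior count 2), the 2 highest markers per cell type and Mettl3. Others were chosen after their values were seen. They were Tnfrsf11a, Pth1r, Osm, Sema3a, Ctsk, Atp6v0d2, Ptprc, Prrx1, Pdgfrb, Pdgfra, Thy1, Cdh5 and Pecam1. Genes at or near 0 and genes listed by presence or absence of a peak were also chosen so. Alternatives were a replicate block, no filter, RLE scaling, DESeq2 1.42.0, limma 3.58.1 on log2(TPM + 0.1), a gene-by-gene linear model on log2(TPM + 1) in the manner of the study's Ballgown, each library left out, the knockout-labelled libraries summed, and other units, pseudocounts and peak criteria.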

Additional observations from a re-analysis of the deposited data

How the results depend on the processing

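No change of a member reversed direction in the 11 alternatives tried for each. The values of all 4 did not overlap between the groups, so leaving out or rescaling libraries could hardly have reversed a direction. Tnfsf11, Tnfrsf11b and Csf1 each kept their call in 10 of them and Il34 in 5. In the ordinary linear model on log2(TPM + 1), which pools no spread across genes, the log2 changes were -2.728 (Tnfsf11, adjusted p = 0.0667), -1.499 (Tnfrsf11b, 0.12), 0.8282 (Csf1, 0.148) and 0.4989 (Il34, 0.24). Il34 also lost its call in DESeq2 (0.4086, adjusted p = 0.0794), in limma on log2(TPM + 0.1) (0.5208, 0.0996) and with the knockout-labelled libraries summed (0.4104, 0.177), and without 1 library it ranged from 0.3077 to 0.5073. In these fits with 1 sample in an arm, edgeR takes the lone sample to vary like the other group. Calls kept without a control-labelled library thus rest on the spread of the knockout-labelled pair alone, the more alike of the pairs. The number of genes called, 4677, became 2060 in limma, 65 in the ordinary model (4218 by unadjusted p at 0.05), 2012 after summing the knockout-labelled libraries, and 1867 to 8750 without 1 library. Each library left out moved this count by over 1.5 times. The lowest count came without knockout-labelled replicate 2 and the highest without control-labelled replicate 1. Genes of the lists called, 43, became 25 in limma, 1 in the ordinary model, 28 with the libraries summed and 25 to 65 without 1 library. The cause was not tested.

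Deviations of same-numbered libraries correlated at 0.032. The knockout-labelled pair differed little beyond counting noise (chi-square 1.82 per degree of freedom), so this value cannot decide whether the replicate numbers pair the libraries. With the replicate block the members changed by -4.953, -1.706, 0.748 and 0.4038, with 4881 genes called. It changed no call of a member. The RANKL to OPG difference of -3.22 and the CSF1 to IL-34 difference of 0.3433 kept their direction in 6 alternatives each, and the number of member peaks stayed at 3 in all 3. Neither count ratio overlapped between the groups, so leaving out a library could not have reversed these differences. Depth limits Tnfsf11 most, with 8 and 12 counts in the knockout-labelled libraries.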

Other observations

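Markers of other cells that such cultures can hold moved in both directions. Of 7 adipocyte markers, 3 were higher and 2 lower: the fatty acid carrier Fabp4 rose from 61.9 and 68.8 CPM to 137 and 140 CPM (log2 fold change 1.08), and the lipid droplet protein Plin4 fell (-1.74). The summed adipocyte level stayed between 225.5 and 229.1 CPM in the 4 libraries. Of 5 endothelial markers 3 were tested, and Kdr (2.14) and Emcn (3.47) were higher at low levels, while Cdh5, with 14 and 11 counts against 4 and 6, did not pass (-1.16). Pecam1, with 9 and 7 counts against 4 and 5, was below the filter. The summed level was 3.64 and 3.22 CPM against 17.1 and 14.5 CPM. Of 6 neutrophil markers only S100a8 was tested, and it was lower (-2.43), with Elane at 0 to 4 counts. Of 7 lymphocyte markers only Cd4 was tested and it did not pass (0.09), with Cd79a at 0 to 5 counts.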
